A study of Homo sapiens with 18 samples.

Results

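The fusion EWS-FLI1 was compared with mCherry alone in untreated U2OS cells, a human osteosarcoma line, by sequencing of polyA RNA. The comparison used the 3 libraries titled mCherry-EWS-FLI1 without drug and the 3 titled mCherry, 6 of the 18 libraries in all. EWS-FLI1 cells were U2OS cells with an integrated mCherry-EWS-FLI1 construct, and mCherry cells were U2OS cells with an integrated mCherry construct, so both groups carried the fluorescent tag. For some genes the values are set beside those of 2 other untreated lines, mCherry-EWS-FLI1mut and mCherry-EWS(YS37)-FLI1, with 3 libraries each. The last 6 libraries, from EWS-FLI1 cells given LY2835219, entered only the shared fit. There they took part in the filter on low counts, the scaling and the estimate of the spread between libraries. The filter left 16786 genes, against 16259 with the 12 untreated libraries alone and 15600 with the 6 compared. The labels call the libraries biological replicates, but they do not say whether a line was a clone or a pool, which promoter drove the constructs or what EWS-FLI1mut changes. A pair of library kits is named with no word on which library each served, and none of the lines is described as made more than once. The p-values therefore cover the spread between these libraries and not that between lines.

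Ewing sarcoma is driven by a chromosomal fusion that joins the low-complexity, activating part of EWSR1 to the ETS DNA-binding domain of FLI1. The fusion protein binds GGAA motifs, both single ETS sites and repeats of GGAA, and in Ewing cells it is known to activate some genes and to repress others, among them genes of mesenchymal differentiation. U2OS is of bone origin and lacks the fusion, so the question here is which RNAs differ when a cell outside the Ewing lineage carries it.

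Total estimated counts lay between 16261034 and 19508221 per library. Mitochondrial genes took 4.43% to 5.10% of the counts, and none of the 13 tested genes of the mitochondrial genome was called in either direction. Of 11 tested replication-dependent histone genes, whose RNAs lack a polyA tail and serve as a sign of RNA quality, 2 rose and 0 fell. The first principal component of the 6 libraries held 34.2% of the variance and separated EWS-FLI1 from mCherry libraries. The second held 17.6%.

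FLI1 (ENSG00000151702, chromosome 11, 128686535 to 128813267 of hg38) followed the labels. It had 265, 232 and 245 CPM in EWS-FLI1 libraries, against 1.16, 0.426 and 0.0534 CPM in mCherry libraries, a log2 fold change of 8.78 ± 0.17 (edgeR quasi-likelihood test with Benjamini-Hochberg adjustment, adjusted p = 1.09e-20). CPM are TMM-scaled counts relative to the library's total, values after ± are standard errors for log2 fold changes and standard deviations for levels, and each group has 3 libraries. In EWS-FLI1 libraries 99.8% of the FLI1 counts lay on the single annotated transcript FLI1-209, with 5171, 4422 and 4549 estimated counts. EWSR1 had 742, 724 and 751 CPM in EWS-FLI1 libraries and 348, 329 and 343 CPM in mCherry libraries. Its transcript EWSR1-204 held 26.8% of the EWSR1 counts in EWS-FLI1 libraries and no counts in any mCherry library. Counts from the construct and from the endogenous genes were not told apart.

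Of 16786 genes tested, 1866 were higher in EWS-FLI1 cells (11.1%) and 1670 were lower (9.95%), 21.1% in all at an adjusted p under 0.05. Most differences were small. The median size of the log2 fold change was 0.37 among the genes that rose and 0.36 among those that fell, and 68.8% and 71.5% of them stayed under 0.5. A log2 fold change of at least 1 was reached by 179 genes that rose (1.07% of those tested) and 141 that fell (0.84%). The 3 EWS-FLI1 values and the 3 mCherry values did not overlap for 3390 of the called genes, 20.2% of those tested. Genes not called were not counted in this way, and a lack of overlap largely goes with being called. Calls were more frequent among abundant genes: 20.6% rose and 19.9% fell among the 2174 genes at 100 CPM or more in mCherry cells, against 2.68% and 0.937% of the 2349 genes under 1 CPM. The counts moved with the treatment of transcript length and when any 1 library was left out. With transcript-length offsets, which adjust for a shift between long and short transcripts of a gene, 1042 genes rose and 659 fell. Without any 1 of the 6 libraries, 1476 to 1760 genes rose and 1108 to 1352 fell.

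**Figure D1:**
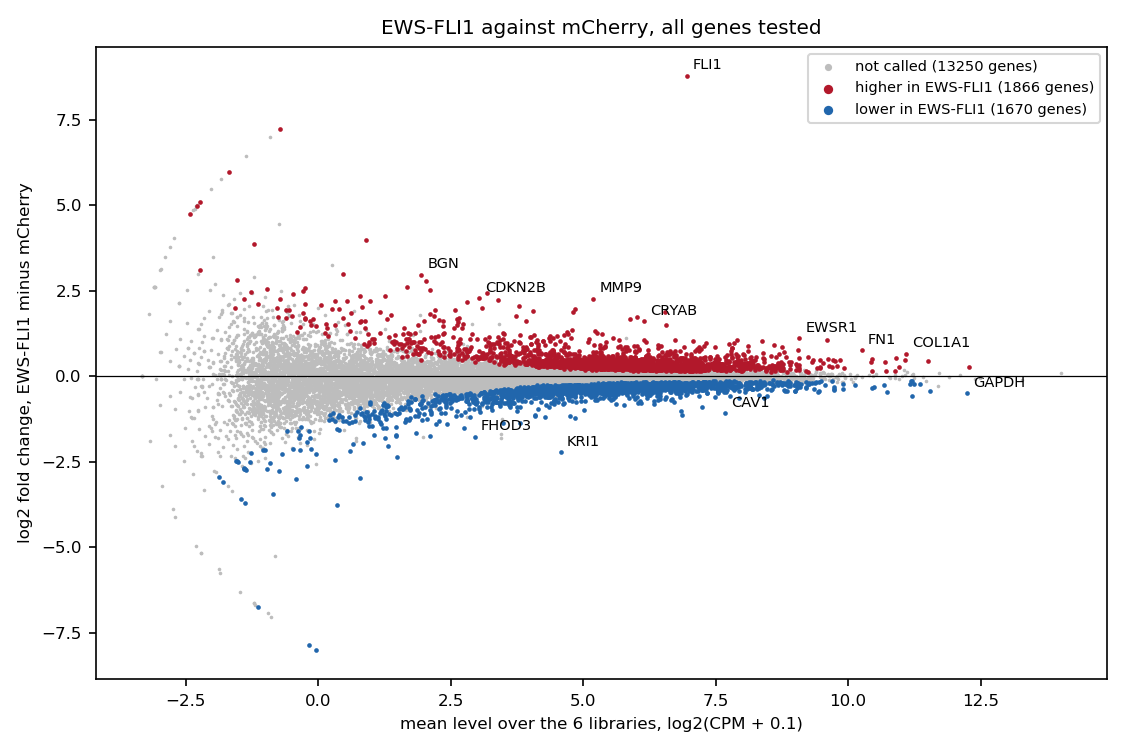
Each point is 1 of the 16786 tested genes, with its mean level over the 6 libraries on the horizontal axis, as log2(CPM + 0.1), and its log2 fold change, EWS-FLI1 minus mCherry, on the vertical axis. The 1866 genes called higher are red, the 1670 called lower are blue, and FLI1 at 8.78 stands above the rest.

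Among the rises were genes of the cell surface and the matrix. BGN, which encodes biglycan, a small proteoglycan of the matrix, had 5.32, 6.25 and 8.33 CPM in EWS-FLI1 cells and 0.474, 1.22 and 0.854 CPM in mCherry cells (log2 2.97 ± 0.32, adjusted p = 4.68e-07). CDH5, the cadherin of endothelial junctions, had 7.31, 7.19 and 6.39 CPM with EWS-FLI1 and 1.27, 1.04 and 0.694 CPM with mCherry (2.79 ± 0.27, adjusted p = 1.31e-07). The lowest EWS-FLI1 library lay several-fold above the highest mCherry library for both genes, at low levels throughout. LRRC32, which holds latent TGF-beta at the cell surface, had 7.72, 7.30 and 6.45 CPM in EWS-FLI1 cells, against 1.90, 0.487 and 1.28 CPM in mCherry cells (2.52 ± 0.33). CD248, the mesenchymal surface glycoprotein endosialin, had 11.9, 17.6 and 16.3 CPM in EWS-FLI1 cells, against 1.79, 2.68 and 3.95 CPM in mCherry cells (2.44 ± 0.27). CLDN1, a tight junction protein, had 26.4, 19.8 and 20.1 CPM in EWS-FLI1 cells, against 5.22, 5.36 and 5.39 CPM in mCherry cells (2.05 ± 0.13, adjusted p = 1.55e-10). The mCherry libraries were nearly identical for CLDN1, and every EWS-FLI1 library was well above them. In bulk RNA of this kind, fewer cells with a transcript and less of it per cell cannot be told apart.

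Secreted and regulatory genes rose as well. MMP9, a gelatinase that degrades matrix, had 65.01, 39.2 and 76.2 CPM in EWS-FLI1 cells and 10.6, 12.7 and 14.04 CPM in mCherry cells (2.27 ± 0.24, adjusted p = 4.02e-07). The EWS-FLI1 libraries varied among themselves, with replicate 2 the lowest, and still none came near the mCherry values. CDKN2B, which encodes the CDK4/6 inhibitor p15, had 14.3, 15.01 and 11.1 CPM in EWS-FLI1 cells and 2.85, 2.68 and 2.78 CPM in mCherry cells (2.28 ± 0.27, adjusted p = 1.54e-06). Its neighbour CDKN2A was listed at 0 counts in all 6 libraries. CXCL8, the neutrophil chemokine interleukin-8, had 9.71, 5.14 and 6.50 CPM in EWS-FLI1 cells and 0.685, 2.56 and 2.40 CPM in mCherry cells (1.93 ± 0.33, adjusted p = 0.000154). The transcription factor of tendon cells SCX had 18.7, 17.7 and 14.9 CPM in EWS-FLI1 cells, against 4.43, 3.96 and 2.56 CPM in mCherry cells (2.23 ± 0.17). SCX lies inside BOP1 on the opposite strand, whose RNA also rose, by 0.44 on the log2 scale, and the strandedness of the counting is not given in the sources used here.

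KIAA1210 rose too, with 44.8, 49.6 and 41.7 CPM in EWS-FLI1 cells and 9.59, 12.5 and 12.7 CPM in mCherry cells (1.97 ± 0.11). CAPN6, a calpain without protease activity, had 6.90, 11.97 and 9.24 CPM in EWS-FLI1 cells, against 1.95, 2.56 and 2.88 CPM in mCherry cells (1.93 ± 0.26). C1QTNF3, a secreted relative of complement C1q, had 12.8, 15.4 and 12.3 CPM in EWS-FLI1 cells, against 1.74, 4.63 and 3.74 CPM in mCherry cells (2.01 ± 0.27). All 3 genes separated the groups fully, as the choice of the largest rises required. A pair of further rises is less certain. GGTLC2 (2.62 ± 0.42) shares 66.4% of its stretches of 31 bases with other genes, such as GGT1. ANO2, a calcium-activated chloride channel, rose by 2.18 ± 0.61 (adjusted p = 0.0123), but the adjusted p was 0.915 with transcript-length offsets and 0.054 without mCherry replicate 3.

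**Figure D2:**
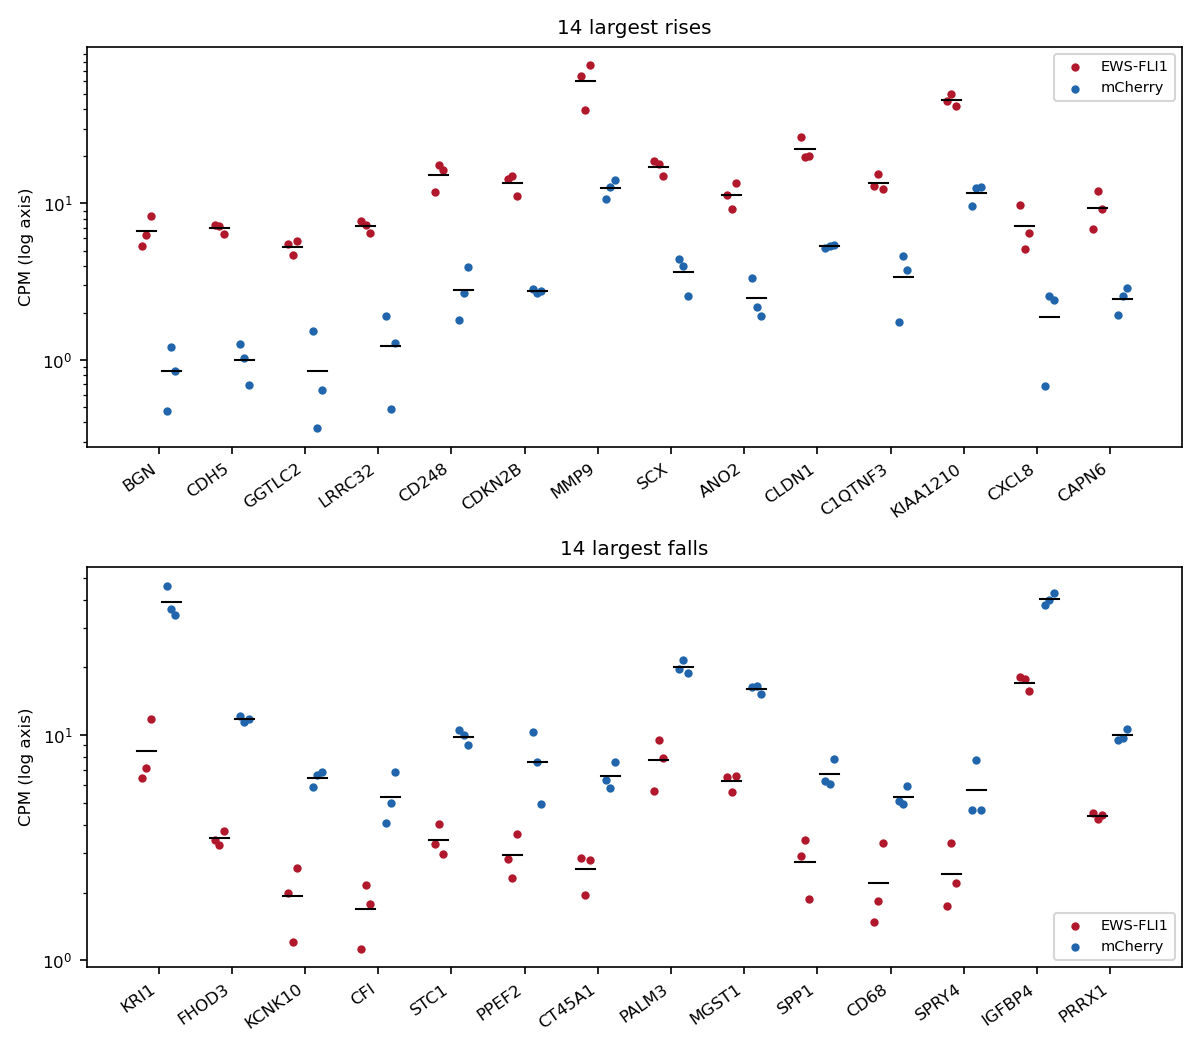
Each point is the level of a gene in 1 library in CPM on a log axis, with EWS-FLI1 libraries in red left of mCherry libraries in blue, and horizontal bars at the group means. The 14 largest rises are in the upper panel and the 14 largest falls in the lower panel, chosen among called protein-coding genes whose higher group averaged 5 CPM or more and whose groups did not overlap, so that their separation follows from the choice.

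Promoters were read for the 14 rises from RefSeq (GRCh38.p14, 250 bases before to 50 bases after the start), which held 8 of them. None of the 8 contained GGAAGGAA, a short run of the GGAA repeat, or the single ETS site CCGGAAGT, on either strand. When TGANTCA, the AP-1 site, and GGAATG, the TEAD site, were searched after the values were seen, 4 of the 8 held at least 1 of them. The promoters of CDKN2B (chr9:22009256-22009555, minus strand) and CXCL8 (chr4:73740319-73740618, plus strand) are shown because they carry such a match. Capitals mark GGAATG in the first, where it appears as its reverse complement, and TGANTCA in the second.
CDKN2B: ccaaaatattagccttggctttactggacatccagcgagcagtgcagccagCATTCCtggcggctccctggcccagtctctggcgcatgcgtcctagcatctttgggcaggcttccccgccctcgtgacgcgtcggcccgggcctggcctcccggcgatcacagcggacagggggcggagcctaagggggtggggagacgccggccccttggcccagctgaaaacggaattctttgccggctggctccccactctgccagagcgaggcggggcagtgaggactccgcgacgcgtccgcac
CXCL8: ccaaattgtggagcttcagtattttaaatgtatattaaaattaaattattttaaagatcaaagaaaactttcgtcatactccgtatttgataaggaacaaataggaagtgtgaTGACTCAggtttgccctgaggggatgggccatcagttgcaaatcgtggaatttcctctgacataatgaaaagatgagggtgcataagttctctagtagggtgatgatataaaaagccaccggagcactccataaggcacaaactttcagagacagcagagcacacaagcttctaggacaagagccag
A match describes these letters and is no measurement of binding. Of all 27305 RefSeq promoters of this length, 3.58% held GGAAGGAA, 4.4% CCGGAAGT, 7.76% TGANTCA and 14.1% GGAATG. Among promoters of tested protein-coding genes the shares were 3.53%, 7.75%, 4.9% and 11.1% in that order. With so few promoters, a count of 0 lies near these shares. The share of promoters that held TGANTCA or GGAATG was not counted, and DNA outside these promoters was not searched.

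The falls included structural, metabolic and developmental genes. FHOD3, a formin that organises actin in muscle, fell to 3.42, 3.25 and 3.76 CPM in EWS-FLI1 cells, against 12.2, 11.5 and 11.7 CPM in mCherry cells (-1.76 ± 0.16, adjusted p = 3.12e-08). IGFBP4, a secreted binding protein for insulin-like growth factors, had 18.1, 17.7 and 15.6 CPM in EWS-FLI1 cells and 38.01, 39.7 and 42.9 CPM in mCherry cells (-1.23 ± 0.13, adjusted p = 2.95e-07). Replicates of both genes lay close together within each group. MGST1, a microsomal glutathione transferase, had 6.49, 5.62 and 6.61 CPM in EWS-FLI1 cells and 16.3, 16.5 and 15.2 CPM in mCherry cells (-1.36 ± 0.13). PRRX1, a homeobox factor of limb and craniofacial mesenchyme, had 4.50, 4.25 and 4.40 CPM in EWS-FLI1 cells, against 9.54, 9.75 and 10.7 CPM in mCherry cells (-1.19 ± 0.14). STC1, the secreted hormone stanniocalcin, had 3.27, 4.04 and 2.95 CPM in EWS-FLI1 cells, against 10.5, 9.99 and 9.02 CPM in mCherry cells (-1.52 ± 0.21). The level in EWS-FLI1 cells was below the mCherry range in every library for these 3 genes, as the choice of the largest falls required.

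SPP1, which encodes osteopontin, a phosphoprotein of bone matrix, had 2.91, 3.41 and 1.88 CPM in EWS-FLI1 cells and 6.27, 6.09 and 7.85 CPM in mCherry cells (-1.30 ± 0.22, adjusted p = 0.000168). The potassium channel gene KCNK10 had 1.99, 1.21 and 2.58 CPM in EWS-FLI1 cells, against 5.90, 6.64 and 6.88 CPM in mCherry cells (-1.75 ± 0.26). CFI, the complement regulator factor I, had 1.12, 2.15 and 1.77 CPM in EWS-FLI1 cells, against 4.06, 4.995 and 6.88 CPM in mCherry cells (-1.66 ± 0.26), with 34.6% of its stretches of 31 bases shared with other genes. All of them were low in both groups. CD68, a glycoprotein of lysosomes, fell by 1.27 on the log2 scale, and PALM3, a paralemmin of the plasma membrane, fell by 1.37. CT45A1, a cancer-testis gene, fell by 1.38 and shares 88.6% of its sequence with its copies. PPEF2, a protein phosphatase (-1.38 ± 0.31), and SPRY4, an inhibitor of receptor kinase signalling (-1.23 ± 0.31), were called in the counts but not on log2(TPM + 0.1), where the adjusted p was 0.0896 for PPEF2 and 0.144 for SPRY4. Without mCherry replicate 2 that of SPRY4 was 0.0535 in the counts.

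KRI1, whose yeast counterpart acts in ribosome assembly, gave the largest fall among these genes on the log2 scale (-2.20 ± 0.46, adjusted p = 0.00129). It had 6.44, 7.14 and 11.8 CPM in EWS-FLI1 cells and 46.2, 36.2 and 34.3 CPM in mCherry cells. The difference lay mostly on 1 transcript, KRI1-201, which held 0.3, 4.2 and 55.2 estimated counts in EWS-FLI1 libraries and 673, 446 and 421 in mCherry libraries. ATG4D, which overlaps KRI1 on the opposite strand, was not called (0.13, adjusted p = 0.419).

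RefSeq held promoters for 13 of the 14 falls, and 2 of the 13 contained CCAAT, the NF-Y box, or TTCCCGCC, an E2F site, on either strand. Both are shown: CFI (chr4:109801950-109802249, minus strand) with 1 match and PRRX1 (chr1:170663881-170664180, plus strand) with 2, all to CCAAT, marked in capitals.
CFI: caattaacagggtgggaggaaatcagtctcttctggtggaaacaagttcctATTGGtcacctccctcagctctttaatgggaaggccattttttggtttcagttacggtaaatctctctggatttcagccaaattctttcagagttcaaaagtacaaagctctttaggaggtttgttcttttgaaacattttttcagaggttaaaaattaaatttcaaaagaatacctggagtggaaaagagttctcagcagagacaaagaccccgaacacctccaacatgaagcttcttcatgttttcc
PRRX1: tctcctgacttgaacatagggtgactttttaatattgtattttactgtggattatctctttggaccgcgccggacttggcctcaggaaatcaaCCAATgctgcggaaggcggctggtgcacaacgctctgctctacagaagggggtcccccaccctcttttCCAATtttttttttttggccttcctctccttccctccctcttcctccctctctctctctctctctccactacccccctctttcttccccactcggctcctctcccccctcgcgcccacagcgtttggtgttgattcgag
The box is common: 35.7% of all RefSeq promoters of this length held CCAAT and 3.18% held TTCCCGCC.

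The EWS-FLI1 libraries were next set against those of the other fusion lines, a comparison that shares the EWS-FLI1 libraries with the one against mCherry and is given only side by side. Against EWS-FLI1mut cells 8.77% of all genes were higher in EWS-FLI1 cells and 7.5% lower, and against EWS(YS37)-FLI1 cells the shares were 14.8% and 16.3%. The 14 largest rises and 14 largest falls were chosen for their values in these same EWS-FLI1 libraries. That choice raises the counts that follow, so they cannot be weighed against the shares of all genes. All 14 of the largest rises were also called higher than in EWS-FLI1mut cells, with a median log2 difference of 2.48. Against EWS(YS37)-FLI1 cells 10 of them were higher and 1 was lower. BGN exceeded both lines on the log2 scale, by 2.67 over EWS-FLI1mut and 2.19 over EWS(YS37)-FLI1, and CDKN2B did so by 2.13 and 2.11. CDH5 was 3.67 above EWS-FLI1mut cells but not called against EWS(YS37)-FLI1 cells (-0.53, adjusted p = 0.0787), and CLDN1 was lower than there (-0.96, adjusted p = 2.66e-07). Of the 14 largest falls, 13 were called lower than in EWS-FLI1mut cells and 9 lower than in EWS(YS37)-FLI1 cells. FLI1 RNA itself was lower in EWS-FLI1 cells than in either line, with log2 differences of -1.38 from EWS-FLI1mut cells and -2.04 from EWS(YS37)-FLI1 cells.

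In CPM, a scale not divided by transcript length, the largest gains were in the cytoskeleton and matrix. COL1A1, the main chain of type I collagen, had 2687 ± 39.9 CPM in EWS-FLI1 cells and 1692 ± 110.4 CPM in mCherry cells (0.67 ± 0.09). FN1, which encodes fibronectin, had 1546 ± 294 CPM in EWS-FLI1 cells and 905 ± 113 CPM in mCherry cells (0.77 ± 0.16). The actins ACTB (0.28 ± 0.05) and ACTG1 (0.49 ± 0.06), the crosslinker FLNA (0.44 ± 0.06) and the non-muscle myosin MYH9 (0.53 ± 0.06) completed the group of 6. FN1 varied most among these genes, with EWS-FLI1 replicate 3 the highest and still no overlap. GAPDH, a glycolytic enzyme, had 4045 ± 299.8 CPM in EWS-FLI1 cells and 5688 ± 404 CPM in mCherry cells (-0.49 ± 0.06). Of its stretches of 31 bases, 20.1% occur in other genes, led by GAPDHP1. GAPDH and ENO1, another glycolytic enzyme (-0.22 ± 0.04), were among the largest losses. The reductase DHRS2 (-0.58 ± 0.06), the linker histone H1F0 (-0.46 ± 0.05) and the ribosomal protein RPL4 (-0.22 ± 0.05; adjusted p = 0.0557 with transcript-length offsets) were also among them, with MTRNR2L12 (-0.42 ± 0.06), 42.8% of whose sequence is shared with other genes.

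The genes were then described in 39 lists by role, each by its members called and its median log2 fold change, beside 11.1% higher, 9.95% lower and a median of -0.02 over all genes tested. No test of a list was made, and the share of calls is higher among abundant genes, as given above. With transcript-length offsets or on the TPM scale most lists had fewer calls in the same direction, and counts of 3 or more that moved by over 1.5 times are given below. Counts of 2 or fewer took values of 0 to 4 with transcript-length offsets, on the TPM scale or without 1 library, and are given once.

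**Figure D3:**
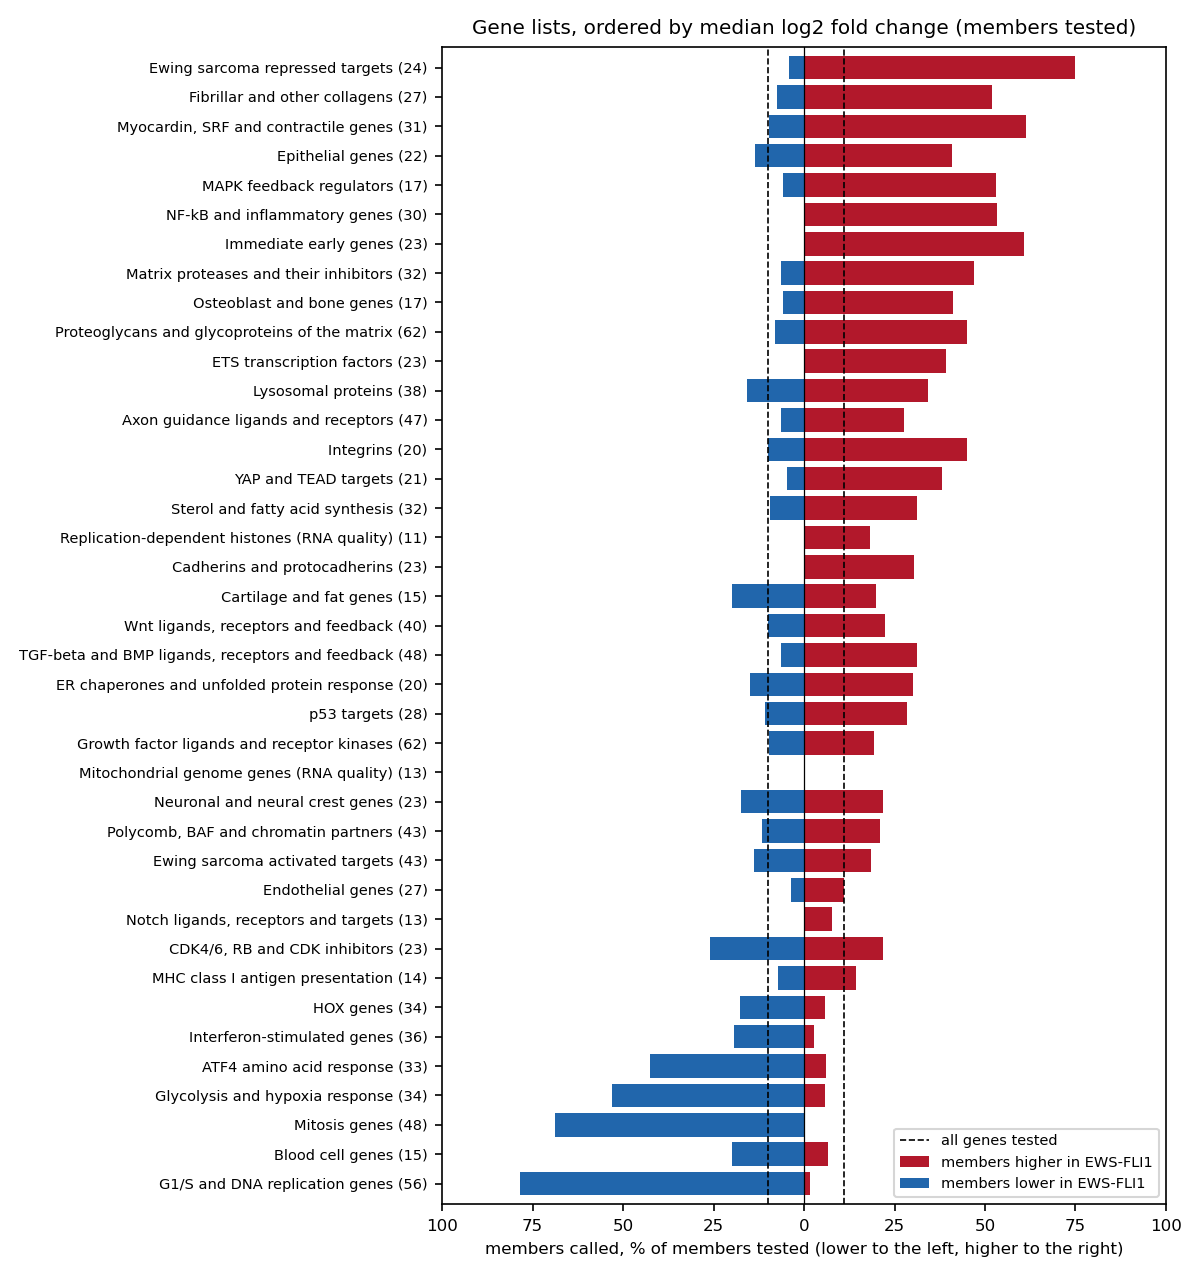
Bars give the percentage of tested members called higher (red, to the right) or lower (blue, to the left) in EWS-FLI1 cells for 39 gene lists, ordered by the median log2 fold change, with the number of members tested in parentheses. Dashed lines mark 11.1% and 9.95%, the shares over all genes tested; the list of targets repressed in Ewing sarcoma stands at the top and the G1/S list at the bottom.

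Genes of the contractile apparatus, many of them targets of the factor SRF and its coactivators, mostly rose. Of 31 tested members 19 rose and 3 fell, and the median was 0.42. TAGLN, the actin-binding protein transgelin, had 151, 117 and 149 CPM in EWS-FLI1 cells and 53.9, 41.5 and 51.3 CPM in mCherry cells (1.51 ± 0.10, adjusted p = 1.94e-10). CNN1, the calponin of smooth muscle, had 39.6, 33.9 and 38.2 CPM in EWS-FLI1 cells and 19.3, 14.4 and 17.1 CPM in mCherry cells (1.13 ± 0.11). For both, all EWS-FLI1 libraries exceeded all mCherry libraries. The coactivator gene MYOCD, which encodes myocardin, went the other way, with 8.33, 15.4 and 8.06 CPM in EWS-FLI1 cells and 26.3, 22.2 and 21.03 CPM in mCherry cells (-1.13 ± 0.26). Its adjusted p was 0.0695 with transcript-length offsets. FHOD3 was another fall. The third, the myosin kinase MYLK (-0.26 ± 0.07), had an adjusted p of 0.798 with transcript-length offsets, which left 1 fall, and of 0.0502 to 0.116 without EWS-FLI1 replicate 2 or 3 or mCherry replicate 1 or 2.

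Among 62 proteoglycans and glycoproteins of the matrix 28 rose and 5 fell (median 0.25). EMILIN1, a glycoprotein of elastic fibres, had 23.5, 26.98 and 27.9 CPM in EWS-FLI1 cells, against 4.69, 8.59 and 7.85 CPM in mCherry cells (1.90 ± 0.16, adjusted p = 1.5e-08). SMOC1, a calcium-binding matrix protein, had 54.99, 49.2 and 55.8 CPM in EWS-FLI1 cells, against 17.6, 22.7 and 23.1 CPM in mCherry cells (1.34 ± 0.13). Both had groups far apart. Falls were smaller, with ECM1, a secreted glycoprotein of skin and cartilage, at -0.50 ± 0.10. Of 27 collagens 14 rose and 2 fell (median 0.45). COL16A1, a collagen that associates with fibrils, had 182, 190.4 and 175 CPM in EWS-FLI1 cells and 90.7, 84.6 and 89.5 CPM in mCherry cells (1.05 ± 0.06, adjusted p = 6.32e-11). COL22A1 (1.06 ± 0.14) rose as well. The falls were COL5A2 (-0.28 ± 0.07) and COL8A1 (-0.57 ± 0.20), with adjusted p of 0.151 and 0.116 under transcript-length offsets, 0.0638 for COL5A2 without mCherry replicate 3, and 0.0784 to 0.315 for COL8A1 without EWS-FLI1 replicate 1 or 3 or mCherry replicate 1. COL1A2, the partner chain of COL1A1, was low, at 1.27 ± 0.354 CPM in EWS-FLI1 cells and 0.393 ± 0.205 CPM in mCherry cells (1.69 ± 0.54), and its adjusted p was 0.0514 to 0.133 without EWS-FLI1 replicate 1 or 2 or mCherry replicate 1. On log2(TPM + 1) 18 of the glycoproteins rose and 2 fell, and 9 of the collagens rose and 0 fell.

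Matrix proteases and their inhibitors had 15 rises and 2 falls among 32 members (median 0.32). Besides MMP9, the collagenase MMP13 (1.06 ± 0.19) and the aggrecan-cleaving protease family member ADAMTS1 (1.11 ± 0.30) rose. MMP7, or matrilysin, fell to 0.256, 0.367 and 0.269 CPM in EWS-FLI1 cells, against 1.27, 1.46 and 1.60 CPM in mCherry cells (-2.25 ± 0.49). It was low in both groups, and the size of its log2 fall was 1.12 in the setting that gave the smallest. Integrins, the receptors of matrix, had 9 rises and 2 falls among 20 (median 0.16), with 6 rises under transcript-length offsets and 5 on log2(TPM + 0.1). The collagen-binding subunit ITGA2 (0.83 ± 0.12) and the subunits of the vitronectin receptor, ITGB3 (0.61 ± 0.13) and ITGAV (0.49 ± 0.07), rose, though 51.0% of the stretches of 31 bases of ITGB3 occur in AC068234.1. The leukocyte subunits ITGAX (-1.07 ± 0.25) and ITGB2 (-0.57 ± 0.17) were called lower in the counts but not on log2(TPM + 1), with adjusted p of 0.0762 and 0.874. Cadherins and protocadherins had 7 rises and 0 falls among 23 (median 0.10), 4 rises without EWS-FLI1 replicate 2 and 3 on log2(TPM + 0.1). CDH11, the cadherin of osteoblasts, was among them (0.56 ± 0.07).

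**Figure D4:**
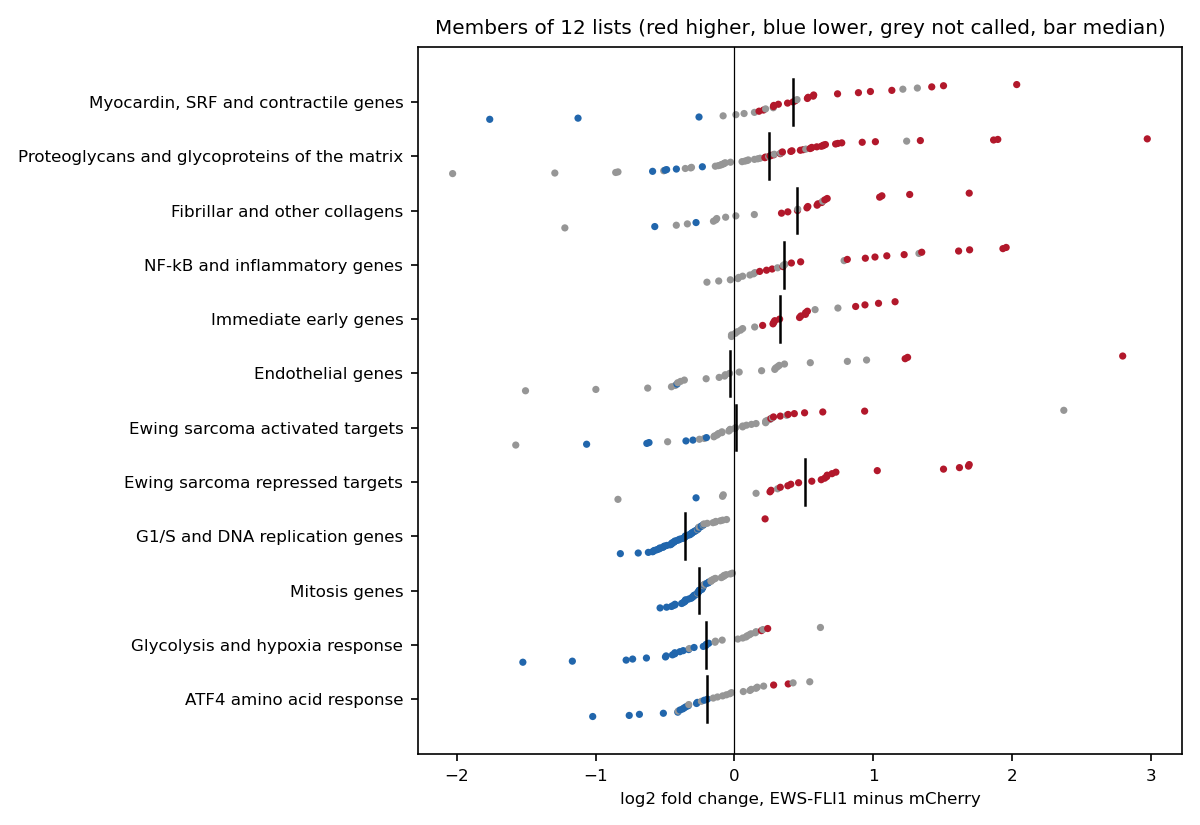
Each point is a tested member of 1 of 12 lists at its log2 fold change, EWS-FLI1 minus mCherry, red where called higher, blue where called lower and grey where not called, with a bar at the list's median. Contractile, matrix, collagen and immediate early genes lie mostly right of 0, while G1/S and mitosis genes lie almost wholly left of 0.

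Of 48 ligands, receptors and feedback genes of TGF-beta and BMP signalling 15 rose and 3 fell (median 0.07). ENG, the coreceptor endoglin, had 34.2, 38.5 and 37.1 CPM in EWS-FLI1 cells and 15.3, 14.3 and 17.2 CPM in mCherry cells (1.23 ± 0.11, adjusted p = 4.57e-08). The ligand BMP6 (1.15 ± 0.16) and the BMP antagonist NOG (0.89 ± 0.08) rose, and the ligand BMP4 fell (-0.53 ± 0.07; adjusted p = 0.0606 on log2(TPM + 1)). Wnt ligands, receptors and feedback genes had 9 rises and 4 falls among 40 (median 0.07). The ligands WNT10A (1.43 ± 0.28), WNT5B (1.09 ± 0.18) and WNT6 (0.98 ± 0.15) rose, and the R-spondin receptor LGR4 fell (-0.59 ± 0.13; adjusted p = 0.0693 on log2(TPM + 0.1)). Growth factor ligands, their binding proteins and receptor kinases had 12 rises and 6 falls among 62 (median 0.03). IGFBP7 had 135, 145 and 163 CPM in EWS-FLI1 cells and 34.4, 39.1 and 46.3 CPM in mCherry cells (1.89 ± 0.12, adjusted p = 1.07e-10). All EWS-FLI1 libraries were about equally far above the mCherry range. FGF1 (0.94 ± 0.11) and HBEGF (0.76 ± 0.10) rose, and the collagen receptor kinase DDR2 (-0.77 ± 0.09) and IGFBP6 (-0.75 ± 0.11) fell. With transcript-length offsets the TGF-beta and BMP genes had 9 rises and 1 fall, the Wnt genes 6 rises and 1 fall, and the growth factor genes 7 rises and 6 falls. On log2(TPM + 0.1) the counts were 9 rises and 0 falls for TGF-beta and BMP, 5 and 0 for Wnt, and 6 and 3 for growth factors. The falls of Wnt genes also dropped to as few as 1 without EWS-FLI1 replicate 1 or mCherry replicate 1 or 3, and without EWS-FLI1 replicate 2 the TGF-beta and BMP genes had 5 falls.

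Many genes that respond to mitogens rose. Of 23 immediate early genes, which are transcribed within minutes of a stimulus, 14 rose and 0 fell (median 0.33). EGR1 had 188, 184.1 and 190.2 CPM in EWS-FLI1 cells and 88.2, 108 and 111 CPM in mCherry cells (0.87 ± 0.09, adjusted p = 1.89e-07), and FOS had 21.7, 20.998 and 20.6 CPM in EWS-FLI1 cells, against 9.59, 10.96 and 12.4 CPM in mCherry cells (0.94 ± 0.14). Both transcription factor genes separated the groups. Feedback regulators of the MAPK pathway had 9 rises and 1 fall among 17 (median 0.36), with 5 rises under transcript-length offsets. The phosphatases DUSP2 (1.02 ± 0.17) and DUSP1 (0.69 ± 0.10) were among the rises, and SPRY4 was the fall. Targets of YAP and TEAD had 8 rises and 1 fall among 21 (median 0.13), 4 rises under transcript-length offsets and 3 on log2(TPM + 0.1). CTGF, a secreted matricellular protein, had 483, 444 and 412 CPM in EWS-FLI1 cells and 204, 227 and 225 CPM in mCherry cells (1.03 ± 0.06), its relative CYR61 rose by 0.66 ± 0.06, and the membrane repair protein MYOF fell (-0.85 ± 0.07). MYOF lies in one of the chromosome regions of shifted medians described below, and without those regions 6 of 17 YAP and TEAD targets rose and 0 fell. Notch genes had 1 rise and 0 falls among 13.

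NF-kB and inflammatory genes had 16 rises and 0 falls among 30 members (median 0.36), and 10 rises under transcript-length offsets. TRAF1, a signalling adaptor induced by NF-kB, had 9.05, 4.83 and 3.76 CPM in EWS-FLI1 cells and 2.003, 2.13 and 1.65 CPM in mCherry cells (1.61 ± 0.25, adjusted p = 6.27e-05). EWS-FLI1 replicate 1 was the highest for TRAF1, and the groups did not overlap. CCL20, a chemokine, had 1.73 ± 0.829 CPM in EWS-FLI1 cells and 0.442 ± 0.0780 CPM in mCherry cells (1.96 ± 0.42), with an adjusted p of 0.0524 under transcript-length offsets. Interferon-stimulated genes had 1 rise and 7 falls among 36 (median -0.15), with 4 falls without EWS-FLI1 replicate 3 and 3 with transcript-length offsets. IFI44 had 11.96, 12.4 and 11.01 CPM in EWS-FLI1 cells and 24.6, 27.8 and 28.3 CPM in mCherry cells (-1.19 ± 0.15, adjusted p = 5.72e-06), and BST2, the antiviral protein tetherin, fell as well (-0.88 ± 0.17).

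ETS factors, the family of FLI1, had 9 rises, FLI1 included, and 0 falls among 23 (median 0.22), and 5 rises under transcript-length offsets. ETS1 had 140.0, 115 and 125 CPM in EWS-FLI1 cells and 81.7, 86.01 and 81.9 CPM in mCherry cells (0.61 ± 0.06, adjusted p = 3.19e-07), with no overlap. ETV4 (0.33 ± 0.08) and ELF4 (0.33 ± 0.08) rose less. A list of targets activated by the fusion in Ewing sarcoma was written from general knowledge and not taken from a published set. Of its 43 tested genes, 8 rose and 6 fell (median 0.01). These are 18.6% and 13.95% of them, against 11.1% and 9.95% of all genes. On log2(TPM + 0.1) 4 rose and 2 fell. The glutathione transferase GSTM4 (0.50 ± 0.08), which shares sequence with its relatives, and the atypical protein kinase C gene PRKCZ (0.43 ± 0.08) were among the rises. The falls included CAV1, the scaffold protein of caveolae, which had 138, 129.9 and 129 CPM in EWS-FLI1 cells and 303, 264 and 261 CPM in mCherry cells (-1.06 ± 0.08, adjusted p = 8.07e-10).

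A list of targets repressed in Ewing sarcoma was likewise written from general knowledge. Of its 24 tested genes, 18 rose in EWS-FLI1 cells and 1 fell (median 0.51). Several are matrix and contractile genes that other lists hold too, such as TAGLN, CTGF and COL1A1. CRYAB, a small heat shock protein, had 103, 108 and 110.5 CPM in EWS-FLI1 cells and 33.5, 35.3 and 35.97 CPM in mCherry cells (1.62 ± 0.08, adjusted p = 1.1e-12), with each library close to its group's mean. Of its stretches of 31 bases, 16.3% occur in other genes, mainly the adjacent HSPB2. NPPB, a natriuretic peptide, had 3.48, 3.57 and 3.71 CPM in EWS-FLI1 cells, against 1.63, 1.22 and 0.480 CPM in mCherry cells (1.68 ± 0.36). The fibrillar collagen gene COL5A2 was the member that fell.

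Cell cycle genes were mostly lower. Of 56 genes of G1/S and DNA replication, 44 fell and 1 rose (median -0.35). The gene that rose was the repressor E2F7 (0.22 ± 0.06), whose adjusted p was 0.911 with transcript-length offsets and 0.0851 without EWS-FLI1 replicate 1. Their summed level was 5496, 5821 and 5696 CPM in EWS-FLI1 libraries and 7226, 7049 and 7081 CPM in mCherry libraries. The activator E2F2 had 14.9, 15.8 and 16.4 CPM in EWS-FLI1 cells and 30.1, 26.3 and 26.8 CPM in mCherry cells (-0.82 ± 0.12, adjusted p = 3.56e-05). RFC4, a subunit of the clamp loader of replication, had 50.3, 52.1 and 49.8 CPM in EWS-FLI1 cells and 73.5, 71.6 and 72.5 CPM in mCherry cells (-0.52 ± 0.06, adjusted p = 3.75e-06). No library of one group reached the range of the other. The repair gene BRCA1 (-0.69 ± 0.08), the primase subunit PRIM1 (-0.62 ± 0.09), the replicative helicase factor GINS4 (-0.59 ± 0.07) and cyclin E1, CCNE1 (-0.54 ± 0.08), fell too. With transcript-length offsets 24 genes of this list fell, and 20 on log2(TPM + 1).

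Mitosis genes had 33 falls and 0 rises among 48 (median -0.25). KIF11, a spindle kinesin, had 157, 157 and 149.9 CPM in EWS-FLI1 cells and 218, 209 and 222 CPM in mCherry cells (-0.49 ± 0.07, adjusted p = 1.09e-05). Cyclin B2, CCNB2, had 89.2, 96.1 and 94.1 CPM in EWS-FLI1 cells, against 126, 129 and 128 CPM in mCherry cells (-0.45 ± 0.06). The hyaluronan receptor and spindle protein HMMR had 49.01, 47.1 and 42.7 CPM in EWS-FLI1 cells, against 64.4, 72.1 and 64.7 CPM in mCherry cells (-0.54 ± 0.11), with an adjusted p of 0.0612 on log2(TPM + 1). Falls were shallow and the groups separate for all 3 genes. The count was 19 without EWS-FLI1 replicate 3, 13 with transcript-length offsets and 11 on log2(TPM + 1). KIF11 lies in one of the chromosome regions of shifted medians described below, and without those regions 31 of 46 mitosis genes fell.

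The promoters of the cell cycle genes that fell were searched after their values were seen. RefSeq held 37 of the 44 G1/S genes, of which 10 contained TTCCCGCC (27.0%) and 16 contained CCAAT (43.2%). It held 29 of the 33 mitosis genes, of which 1 contained TTCCCGCC (3.45%) and 23 contained CCAAT (79.3%). Among promoters of all tested protein-coding genes, 4.89% held TTCCCGCC and 36% held CCAAT. Members of these lists that did not fall were not counted, so the shares cannot be tied to the falls. RFC4 (chr3:186806433-186806732, minus strand), with 2 matches to TTCCCGCC, and HMMR (chr5:163460382-163460681, plus strand), with 5 matches to CCAAT, show the motif of each set in capitals, on either strand. A pair of the HMMR matches overlap in one run.
RFC4: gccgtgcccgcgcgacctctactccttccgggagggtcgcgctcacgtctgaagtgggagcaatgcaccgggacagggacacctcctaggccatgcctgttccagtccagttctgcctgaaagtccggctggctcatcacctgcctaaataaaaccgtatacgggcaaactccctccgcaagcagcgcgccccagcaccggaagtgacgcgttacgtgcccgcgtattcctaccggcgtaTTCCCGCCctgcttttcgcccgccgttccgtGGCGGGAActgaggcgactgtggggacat
HMMR: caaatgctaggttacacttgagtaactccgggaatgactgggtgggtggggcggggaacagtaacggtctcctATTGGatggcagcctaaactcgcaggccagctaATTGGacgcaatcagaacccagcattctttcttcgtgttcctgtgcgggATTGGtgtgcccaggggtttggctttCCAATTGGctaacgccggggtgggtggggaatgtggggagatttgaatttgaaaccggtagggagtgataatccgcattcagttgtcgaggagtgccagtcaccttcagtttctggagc

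The kinases, RB family members and inhibitors that govern entry into S phase had 5 rises and 6 falls among 23 (median -0.07). CDK6 had 561, 490.3 and 479 CPM in EWS-FLI1 cells and 286, 279 and 243 CPM in mCherry cells (0.92 ± 0.08, adjusted p = 7.59e-09). The inhibitors CDKN2B, described above, and CDKN1B, which encodes p27 (0.37 ± 0.07), rose with cyclin D3, CCND3 (0.33 ± 0.08). The falls included E2F2, CCNE1 and cyclin A2, CCNA2 (-0.35 ± 0.05). Targets of p53 had 8 rises and 3 falls among 28 (median 0.04). SUSD6 (0.86 ± 0.08) and TP53INP1 (0.65 ± 0.09), both induced by p53, rose, while the stress kinase PLK2 had 67.7, 84.4 and 68.5 CPM in EWS-FLI1 cells and 161, 157 and 163 CPM in mCherry cells (-1.12 ± 0.07, adjusted p = 2.58e-10). The DNA damage sensor DDB2 (-0.33 ± 0.07) and the ferredoxin reductase FDXR (-0.46 ± 0.08) fell.

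Metabolic lists differed in direction. Genes of the ATF4 amino acid response had 2 rises and 14 falls among 33 (median -0.19), and 9 falls with transcript-length offsets. SLC7A11, the cystine transporter, had 80.4, 77.9 and 69.5 CPM in EWS-FLI1 cells and 149, 165 and 148 CPM in mCherry cells (-1.02 ± 0.08, adjusted p = 9.26e-09). Asparagine synthetase, ASNS (-0.76 ± 0.08), and the serine synthesis enzymes PSPH (-0.68 ± 0.10) and PSAT1 (-0.51 ± 0.07) fell. Glycolysis and hypoxia genes had 2 rises and 18 falls among 34 (median -0.20), and 11 falls with transcript-length offsets. The carbonic anhydrase CA12 had 14.7, 20.5 and 14.2 CPM in EWS-FLI1 cells and 38.4, 37.8 and 34.7 CPM in mCherry cells (-1.17 ± 0.12, adjusted p = 1.84e-07). The enolase ENO2 (-0.78 ± 0.08) and the lactate exporter SLC16A3 (-0.73 ± 0.14) fell with GAPDH. Of these members 7 lie in the chromosome regions of shifted medians described below, and without those regions 12 of 27 fell and 1 rose (median -0.14).

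Sterol and fatty acid synthesis had 10 rises and 3 falls among 32 (median 0.11). The mevalonate enzyme MVD (0.51 ± 0.08) and the sterol regulator SREBF2 (0.43 ± 0.05) rose. SREBF1, the regulator of fatty acid genes, was lower at 129 ± 6.46 CPM in EWS-FLI1 cells and 160.3 ± 9.58 CPM in mCherry cells (-0.31 ± 0.06; adjusted p = 0.0511 with transcript-length offsets). Lysosomal proteins had 13 rises and 6 falls among 38 (median 0.17). The cathepsins CTSF (0.84 ± 0.12), CTSL (0.53 ± 0.06) and CTSD (0.44 ± 0.08; 38.5% of its stretches of 31 bases occur in AC068580.4) rose, and the cholesterol exporter NPC1 fell (-0.44 ± 0.09). Chaperones and unfolded protein response genes of the endoplasmic reticulum had 6 rises and 3 falls among 20 (median 0.06). HERPUD1, a factor of protein degradation at that membrane (0.57 ± 0.09), and the response factor XBP1 (0.33 ± 0.06) rose. On log2(TPM + 1) 2 of the chaperone genes rose and 1 fell, 0 of the sterol genes fell and 2 of the lysosomal genes fell.

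The osteosarcoma label was checked on bone genes. RUNX2, the osteoblast master factor, averaged 70.7 ± 2.86 CPM in EWS-FLI1 cells and 58.7 ± 5.14 CPM in mCherry cells. SP7, BGLAP and IBSP, markers of mature osteoblasts, had at most 7 counts in any of the 6 libraries. Of 17 tested bone genes 7 rose and 1, SPP1, fell (median 0.26), with 3 rises without EWS-FLI1 replicate 1 and 4 on log2(TPM + 1). Endothelial genes had 3 rises and 1 fall among 27 (median -0.04). These are 11.1% and 3.70% of them, against 11.1% and 9.95% of all genes. The rises were CDH5, ENG and ESM1, the last with an adjusted p of 0.125 without EWS-FLI1 replicate 1. The endothelial marker PECAM1 averaged 1.54 ± 0.425 CPM in EWS-FLI1 cells and 1.77 ± 0.0856 CPM in mCherry cells (adjusted p = 0.695). The summed level of the list was 174, 169 and 167 CPM in EWS-FLI1 libraries and 144, 142 and 157 CPM in mCherry libraries. Most of the difference in this sum lay on ENG, whose levels are given above. Blood cell genes summed to 30.7, 31.02 and 37.1 CPM in EWS-FLI1 libraries and 45.3, 44.2 and 49.4 CPM in mCherry libraries, with CD3E and HBA1 at 0 counts in all 6. Of 15 tested blood cell genes 1 rose and 3 fell, and on log2(TPM + 1) 0 rose and 1 fell.

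Epithelial genes had 9 rises and 3 falls among 22 (median 0.42), with 1 fall without EWS-FLI1 replicate 2, with transcript-length offsets or on the TPM scale. KRT17, a keratin of basal epithelium, averaged 1046 ± 20.7 CPM in EWS-FLI1 cells and 502 ± 55.7 CPM in mCherry cells (1.06 ± 0.08, adjusted p = 1.88e-09). KRT14, its neighbour in the keratin cluster, rose too (0.93 ± 0.18), while the hair keratin KRT81 had 260.4, 262 and 278 CPM in EWS-FLI1 cells and 494, 359 and 388 CPM in mCherry cells (-0.63 ± 0.08). KRT19 had at most 6 counts in any library. Of the stretches of 31 bases of KRT17, KRT14 and KRT81, 22.5%, 33.03% and 52.4% occur in other genes, led by KRT17P1, KRT16P6 and KRT86, so these values are uncertain. The part that any of these cell types plays in the list counts was not tested.

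Across all tested protein-coding genes with a RefSeq promoter, 12158 of 15422, the 6 motifs were counted in genes that rose, fell or were not called. GGAAGGAA was in 3.21% of the promoters of genes that rose, 2.91% of those of genes that fell and 3.66% of those not called. CCGGAAGT was in 5.92%, 9.90% and 7.74% in the same order, and TTCCCGCC in 3.28%, 7.31% and 4.80%. CCAAT was in 32.1%, 40.2% and 36.03%. TGANTCA was in 5.16%, 4.64% and 4.94%, but in 13.9% of the 115 promoters of genes that rose by at least 1 on the log2 scale and in 11.5% of the 78 of genes that fell by as much. GGAATG was in 12.5%, 10.2% and 10.99%. Among the same large rises and large falls, GGAATG was in 17.4% and 14.1%, GGAAGGAA in 3.48% and 6.41%, CCGGAAGT in 2.61% and 1.28%, TTCCCGCC in 1.74% and 5.13%, and CCAAT in 26.96% and 37.2%. These shares are descriptions without a test.

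Differences also ran along the chromosomes. Medians over windows of 50 neighbouring tested genes lay between -0.17 and 0.14 for the central 90% of 1574 windows. The 12 lowest and 12 highest windows merged into 11 regions, picked for these values and given without a test. On chromosome 12, 6375045 to 7799141, from LTBR to NANOG and including GAPDH, 22 of 50 genes fell and 1 rose (median -0.31). On chromosome 10, 86958618 to 97871580, from SNCG to GOLGA7B and including KIF11, 27 of 90 fell and 1 rose (-0.27). On chromosome 21, 38805307 to 46184476, from ETS2 to SPATC1L, 25 of 60 fell and 0 rose (-0.28), and on chromosome 16, 28823035 to 30431108, from ATXN2L to DCTPP1, 19 of 60 fell and 1 rose (-0.28). On chromosome 1, 11934205 to 22101360, from PLOD1 to CDC42, 33 of 90 rose and 2 fell (0.22), and on chromosome 6, 34466061 to 43016868, from PACSIN1 to MEA1, 26 of 80 rose and 0 fell (0.21). Against EWS-FLI1mut cells, with the EWS-FLI1 libraries shared, the medians of the 6 lower regions were -0.24 to -0.07 and those of the 5 higher regions -0.03 to 0.21, and against EWS(YS37)-FLI1 cells they were -0.28 to -0.11 and 0.05 to 0.09. The value of -0.03 was that of the region on chromosome 7 from ZCWPW1 to AC093668.2, whose median against mCherry cells was 0.21. The 11 regions held 681 tested genes, and outside them 1749 genes rose and 1543 fell. Besides GAPDH, KIF11 and MYOF, the regions held other genes named in the text, among them MGST1, CCND3, EPHA2, COL22A1, ITGB2 and ENO2. What the genes of a region share beyond their position was not tested.

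**Figure D5:**
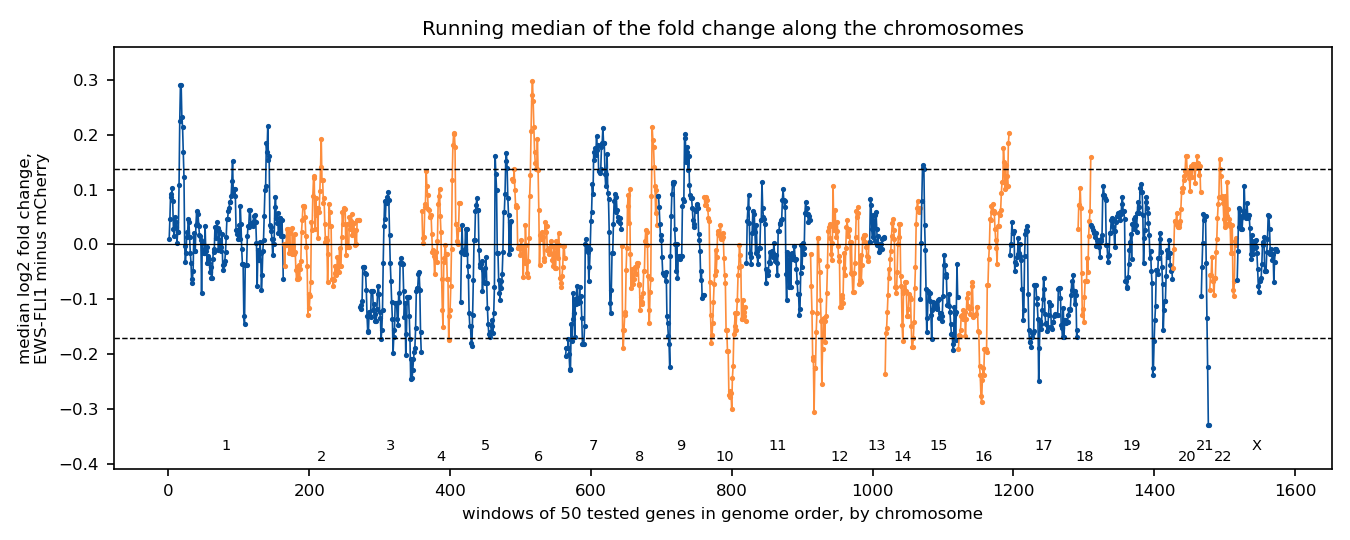
Each point is the median log2 fold change, EWS-FLI1 minus mCherry, of a window of 50 tested genes that neighbour each other, in genome order, with chromosomes in alternating colours and numbered below. Dashed lines mark the 5th and 95th percentile of the windows, -0.17 and 0.14, and runs of overlapping windows lie beyond them in either direction on several chromosomes, such as 3 and 12 below and 1 and 6 above.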

How the data were processed

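PolyA RNA of 18 U2OS libraries was sequenced. The authors deposited 1 transcript table per library that holds, per the file headers, estimated counts (not normalized), TPM (length-normalized shares) and an effective length, a unit other than expression. The submitters' processing notes name kallisto 0.46, CASAVA and hg38. The transcript set, strandedness and index options are not given in the sources used here.

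Transcripts were assigned to genes with GENCODE 29, and 2.63% to 2.67% of counts per library, on unmatched transcripts, were not used. Gene sums of the estimated counts were rounded and filtered (filterByExpr by group), leaving 16786 genes. They were fitted with edgeR 4.0.16 in R 4.3.3 (TMM scaling, quasi-likelihood, all 18 libraries, 1 mean per group, 12 residual degrees of freedom, biological coefficient of variation 8.77%), with Benjamini-Hochberg adjustment over all genes and calls at an adjusted p under 0.05. Alternatives used other scalings and filters, transcript-length offsets, other sets of libraries, DESeq2 1.42.0, and limma 3.58.1 on log2(TPM + 1) or log2(TPM + 0.1). The script was tested on simulated counts.

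Named genes were FLI1, EWSR1 and the markers BGN, CDH5 and CDKN2B. They also included the 14 largest called rises and falls of protein-coding genes at 5 CPM or more in the higher group without overlap. The 6 largest differences in CPM and the 4 largest called long noncoding changes, each way, were added. So were genes with at least 10 counts in each library of 1 group and at most 3 summed over the other. Up to 4 called members per list and direction completed them. Not every such gene is printed, some results are not reported here, and RFC4, BOP1, ATG4D, bone and blood markers and list members at 0 were named after their values were seen. The lists were written from general knowledge, and the comparison and the lists were chosen with earlier results of these data known. Of 236 named called genes checked, 42 are overlapped by another tested gene, among them BGN, TAGLN and IGFBP7. As for SCX, the strandedness of their counting is not given. Over 20% of the stretches of 31 bases occur in other genes for 21 of the 236, GAPDH, RPL4, PRIM1 and HOXD11 included. Promoters came from RefSeq (GRCh38.p14). Libraries within a group differed by more than counting noise, so none was counted as a duplicate. With 3 libraries per group, counts under about 10 per library carry little precision.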

Additional observations from a re-analysis of the deposited data

How the results depend on the processing

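Against the 1866 genes higher and 1670 lower, transcript-length offsets gave 1042 and 659, a glmTreat test against a log2 change of 0.5 gave 138 and 45, limma on log2(TPM + 1) gave 982 and 697, and limma on log2(TPM + 0.1) gave 912 and 632. Leaving out 1 library gave 1476 to 1760 higher and 1108 to 1352 lower. The fewest higher came without EWS-FLI1 replicate 1 and the fewest lower without mCherry replicate 3. Of the 179 genes higher and 141 lower by at least 1, glmTreat gave 90 and 36, limma on log2(TPM + 1) gave 81 and 43, limma on log2(TPM + 0.1) gave 79 lower, transcript-length offsets gave 84 lower and a minimum count of 50 gave 87 lower. Upper-quartile factors (1696 and 1943), no scaling factors (1711 and 1909), no filter on low counts (1978 and 1643), fits of the 6 or the 12 untreated libraries (1812 and 1492, 2035 and 1601) and DESeq2 (2057 and 1678) stayed within 1.5 times. Rises made up 52.8% of all calls, 46.6% with upper-quartile factors and 47.3% with no scaling factors, where falls outnumbered rises, 61.3% with transcript-length offsets and 75.4% under glmTreat. No gene called in both the reported fit and an alternative changed sign. Replicate numbers did not pair the libraries: deviations of same-numbered libraries correlated at 0.00184, 0.000476 and 0.0299, the replicates of EWS-FLI1 matched mCherry replicates 2, 3 and 3 best, and a replicate block gave 1884 and 1695. The cause of these shifts was not tested. Under 1 CPM in mCherry cells 2.68% of genes were called higher and 0.937% lower, and at 1 to 5 CPM 4.33% and 4.37%; the part of depth in this was not tested. Leaving out the most shifted chromosome regions, chosen after seeing the data, changed the glycolysis list to 12 falls of 27 and the interferon list to 5 falls of 30. It changed the mitosis list to 31 falls of 46, and the YAP and TEAD list to 6 rises and 0 falls of 17.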

Other observations

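Genes of axon guidance, which also steer adhesion and migration of cells outside the nervous system, had 13 rises and 3 falls among 47 tested members, with a median log2 fold change of 0.17. The ligand SEMA7A had 68.5, 51.8 and 62.4 CPM in EWS-FLI1 cells and 40.7, 38.1 and 37.7 CPM in mCherry cells (0.65 ± 0.08). The ephrin EFNA1 (0.84 ± 0.13), the ephrin receptor EPHA2 (0.53 ± 0.07) and the semaphorin receptor PLXND1 (0.57 ± 0.08) rose, and the coreceptor NRP1 fell to 91.1, 95.4 and 98.4 CPM in EWS-FLI1 cells, against 124, 142 and 134 CPM in mCherry cells (-0.49 ± 0.08). With transcript-length offsets 5 of these genes rose and 1 fell, and without EWS-FLI1 replicate 2 there was 1 fall. Neuronal and neural crest genes had 5 rises and 4 falls among 23 (median 0.01), with 3 rises under transcript-length offsets and 2 falls without EWS-FLI1 replicate 3. The adhesion molecule NCAM1 had 151, 158 and 166 CPM in EWS-FLI1 cells, against 105, 100.1 and 111 CPM in mCherry cells (0.59 ± 0.06), and the neurofilament NEFL had 37.5, 43.6 and 34.3 CPM in EWS-FLI1 cells, against 65.3, 48.9 and 55.6 CPM in mCherry cells (-0.56 ± 0.10). HOX genes, the positional homeobox factors, had 2 rises and 6 falls among 34 (median -0.10) and 3 falls with transcript-length offsets, led by HOXD11 (-1.08 ± 0.25) and HOXB2 (-1.03 ± 0.15).

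SOX9, the master factor of cartilage, had 293, 285 and 279 CPM in EWS-FLI1 cells and 184.4, 201 and 191 CPM in mCherry cells (0.57 ± 0.06, edgeR adjusted p = 1.51e-07), within a list of cartilage and fat genes that had 3 rises and 3 falls among 15, and 1 rise and 0 falls with transcript-length offsets. Polycomb, BAF and other chromatin partners had 9 rises and 5 falls among 43 (median 0.01), as few as 3 falls without EWS-FLI1 replicate 1 or 3 or mCherry replicate 2 or 3, 4 rises and 2 falls with transcript-length offsets, and 2 rises and 1 fall on log2(TPM + 1). Among long noncoding RNAs of at least 5 CPM, BLACAT1 had 65.9, 61.2 and 63.3 CPM in EWS-FLI1 cells and 42.3, 42.8 and 45.3 CPM in mCherry cells (0.55 ± 0.08), and it overlaps the gene LEMD1. A pair of genes had at least 10 counts in each library of 1 group and at most 3 counts summed over the other group. AL022318.4 had 23, 24 and 11 counts in EWS-FLI1 libraries and 0 in mCherry libraries, and was at least 18.1-fold higher against a floor of 3 counts over the group. Its edgeR adjusted p was 0.0472, and was 0.0546 to 0.113 when any 1 of the 6 libraries was left out, while DESeq2 gave 0.106. AC012254.2 had 0 counts in EWS-FLI1 libraries and 13, 32 and 39 in mCherry libraries, and was at least 30.0-fold lower by the same floor. Its edgeR adjusted p was 0.0226, and was 0.0522 to 0.0647 without any 1 of the EWS-FLI1 libraries or without mCherry replicate 3. Of their stretches of 31 bases, 100% and 95.4% occur in other genes.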
